A study of Homo sapiens with 14 samples.

Results

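Alternative 3′ splice sites are pairs of 3′ sites that follow the same upstream exon, so that the exon after them begins either at the upstream site, giving a longer form, or at the downstream site, giving a shorter one. The events described here are pairs whose sites lay more than 30 bp apart and that had a mean of at least 10 junction reads over the WT and MT groups. They numbered 3494, in 2173 genes, among 5671 alternative 3′ site events with that many reads and 114349 splice events of all kinds in the table. RNA-Seq was done in HEK293T, a human embryonic kidney line, as 3 libraries of cells with *SF3B1* K700K (WT) and 3 of cells with *SF3B1* K700E (MT). The K700E line is isogenic and carries the mutation at the endogenous locus, and the number of clones behind it is not given in the sources used here. Total RNA was sequenced, the labels name no treatment, and the study compared the genotypes to find splicing that differs with the mutation. DRIP-seq libraries of Nalm-6 cells in the same series were not used here.

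A 3′ splice site is read in parts: the branch point adenosine, a stretch of pyrimidines and the AG that ends the intron. SF3B1 is the largest protein of the SF3b complex, which belongs to the U2 small nuclear ribonucleoprotein and holds it at the branch point. K700E is a recurrent change in leukemias and myelodysplasia, and cells that carry it are known for the use of other branch points and of cryptic 3′ sites, many of them a short way upstream of the usual AG. Sites farther apart than that place a whole stretch of exon, a new frame or a new start between the alternatives.

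The pairs on which the results turn lie in *CRNDE*, *ANKHD1*, *DVL2*, *COASY*, *ERGIC3* and *GORASP1*. Their 3′ sites are shown to let the upstream and downstream AG be compared. Each window holds the last 20 bases of the intron and the first 3 of the exon, 5′ to 3′ on the strand of the gene, read from GRCh38, with the AG at the end of the intron in capitals. A further annotated site is given where it followed closely and formed events with the same sites.
CRNDE upstream site, chr16:54920408-54920430, minus strand: tatcttatttaaatcaatAGgta
CRNDE downstream site of the 72-bp pair, chr16:54920336-54920358, minus strand: tgactcattgtgagtgctAGttc
CRNDE downstream site of the 83-bp pair, chr16:54920325-54920347, minus strand: gagtgctagttctcttgtAGgat
ANKHD1 upstream site, chr5:140438441-140438463, plus strand: ttgattgatgcacactgaAGgaa
ANKHD1 downstream site of the 33-bp pair, chr5:140438474-140438496, plus strand: gtcaactgctgatggtaaAGctt
ANKHD1 further site, chr5:140438483-140438505, plus strand: tgatggtaaagcttttgcAGatc
DVL2 upstream site, chr17:7227781-7227803, minus strand: tggtgccatctttgtcccAGatg
DVL2 downstream site, chr17:7227709-7227731, minus strand: tctgactggcaccttcccAGcct
COASY upstream site, chr17:42562276-42562298, plus strand: ccttgaagaccctggtgcAGctt
COASY downstream site, chr17:42562336-42562358, plus strand: tgacaagggttcctgtccAGttt
ERGIC3 upstream site, chr20:35556857-35556879, plus strand: tctctccttacacggccaAGgct
ERGIC3 downstream site of the 78-bp pair, chr20:35556935-35556957, plus strand: tagccctagccctggcccAGgct
ERGIC3 further site, chr20:35556953-35556975, plus strand: aggctcccctcccaccccAGgta
GORASP1 upstream site, chr3:39100875-39100897, minus strand: gtgctatgcgtttctcacAGtcc
GORASP1 downstream site, chr3:39100452-39100474, minus strand: tacaccggatcccaactcAGccc

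In MT cells the longer form of 7 pairs fell and that of 0 rose. Each event was measured by its inclusion level, the share of the longer form among both forms per effective length, as a fraction from 0 to 1. Of the 3494 pairs, 3251 were tested. Another 239 had the same level in every library, 238 of them at 1, and 4 lacked a level in a library. An event was called at an adjusted p under 0.05 (limma after an arcsine square-root transform, Benjamini-Hochberg over 83581 events of all kinds) and a difference in level above 0.1. The calls made up 0.215% of the pairs, and over all events tested 26 passed, or 0.0311%, with 15 falls (0.0179%) and 11 rises (0.0132%). At an unadjusted p under 0.05, limma gave 220 of the 3251 pairs, with 162 differences below 0 and 58 above it. Over all events it gave 3740 (4.47%), with 2462 differences below 0 and 1278 above it. With a library left out, 2 to 6 pairs were called, all of them falls (2 without MT 1 or MT 2, 3 without WT 3). However, 0 calls remained, of 203 to 227 pairs at an unadjusted p under 0.05, when limma ran on the logit of the level, on the level itself or without a trend of the variance on the reads. A quasi-binomial test on the junction reads, added after those alternatives had been seen, called all 7 of them again and 7 other pairs, where 0.112% of all events it could test passed.

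The 3 MT levels used are those with a column of their own among 6 listed MT values, and it is not settled that they come from the 3 MT samples of the series. They are named MT 1, MT 2 and MT 3 after their order. No source says that the libraries of a group came from separate cultures, so p-values measure only the spread between these samples, which may be technical. The table gives neither expression levels nor base calls, and the cell line and the K700E base could not be checked from it. Pairwise correlations of the levels showed no library with the values of another. Junction reads at the pairs tested, where the reads of all 6 libraries were intact (3099 pairs), summed to between 263547 in MT 1 and 380067 in MT 3. Over all 3251 pairs tested, the median of the deposited mean reads was 68.8. PCR duplicates cannot be told from separate molecules in such reads.

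*CRNDE* held the largest fall among the calls. The gene is transcribed into a long noncoding RNA that is raised in colorectal tumors. Its 83-bp pair had inclusion levels of 0.836, 0.829 and 0.93 in WT against 0.219, 0.202 and 0.179 in MT. The groups did not overlap, and the lowest WT level was several times the highest MT level. The mean fell from 0.865 ± 0.056 to 0.2 ± 0.02 (SD, n = 3 each), a difference of −0.665 with an SE of 0.035 (limma adjusted p = 6.82e-08). Reads that join the downstream site rose in number alongside, from 13, 13 and 8 in WT to 81, 75 and 75 in MT, while those of the longer form went from 125, 119 and 200 to 43, 36 and 31. So most reads at this pair joined the upstream site in WT and the downstream site in MT.

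The same upstream site of *CRNDE* also formed a 72-bp pair, with a downstream site 11 bp before that of the 83-bp pair. Its levels were 1, 0.97 and 1 in WT against 0.819, 0.568 and 0.672 in MT, so that every MT library lay below every WT library. The mean difference was −0.304 with an SE of 0.073 (limma adjusted p = 8.18e-04). Only 5, 15 and 8 reads joined that site in MT and 0, 2 and 0 in WT. The call was kept without WT 2 and lost when any other library was left out. Both pairs share the reads of the upstream site and are not independent. In both genotypes, then, the site 83 bp downstream took more reads than the one 72 bp downstream.

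*ANKHD1* encodes a large protein with ankyrin repeats and a KH domain. At its 33-bp pair the longer form made up nearly all of both forms in WT, at 0.994, 0.978 and 0.987, and less in MT, at 0.511, 0.655 and 0.651. The difference was −0.381 with an SE of 0.048 (limma adjusted p = 3.37e-07). Reads of the downstream site numbered 1, 5 and 2 in WT against 69, 75 and 80 in MT. No MT library came near the WT levels. A further site lies 9 bp after the downstream one. Against that site the upstream one kept its share: the 42-bp pair had means of 0.819 in WT and 0.812 in MT, a difference of −0.007 with an SE of 0.034 (limma adjusted p = 0.962), and its groups overlapped. Of the 3 sites, the middle one was thus where the reads of MT and WT differed most by ratio. The 9-bp pair of the middle and last sites, too close to belong to the events described here, had levels of 0.462 in WT and 0.774 in MT.

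*ERGIC3*, whose product cycles between the endoplasmic reticulum and the Golgi, showed the same arrangement of 3 sites. Levels of the 78-bp pair were 0.685, 0.766 and 0.867 in WT against 0.086, 0.104 and 0.172 in MT, apart by more than the spread of either group. The difference was −0.652 with an SE of 0.059 (limma adjusted p = 3.73e-04). The WT levels rest on few reads: both forms together had 5, 14 and 13 reads in WT and 81, 57 and 94 in MT. The further site, 18 bp on, was the main one in both genotypes. Its pair with the upstream site, 96 bp apart, had 375, 338 and 275 reads of the shorter form in WT and 254, 242 and 341 in MT, and its level was 0.027 in WT and 0.047 in MT (limma adjusted p = 0.856). The level of the 78-bp pair therefore compares a pair of minor sites, and the middle of the 3 sites went from 1, 2 and 1 reads in WT to 69, 47 and 68 in MT.

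*DVL2* encodes a Dishevelled protein, which relays Wnt signals from Frizzled receptors. The 72-bp pair had levels of 0.993, 0.969 and 0.953 in WT against 0.745, 0.72 and 0.715 in MT. The SE was the smallest of the 7: the difference was −0.245 with an SE of 0.015 (limma adjusted p = 7.24e-05). The downstream site is in 1 annotated transcript of 15 and the upstream one in 4, and reads of the downstream site numbered 1, 5 and 5 in WT against 27, 51 and 52 in MT.

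*COASY* encodes the enzyme of the last steps of coenzyme A synthesis. Its 60-bp pair lies in the 5′ UTR of the annotated transcripts. Levels were 0.945, 0.971 and 1 in WT against 0.319, 0.624 and 0.608 in MT. The libraries of the genotypes stayed apart, with MT 1 well below the others of its group. The difference was −0.455 with an SE of 0.1 (limma adjusted p = 2.61e-04). Here the annotation favors the site that MT used more, with 2 transcripts for the downstream site and 1 for the upstream one.

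*GORASP1*, which encodes a protein that links Golgi cisternae, had the widest pair among the calls, at 423 bp. All 3 WT libraries were at a level of 1, and MT stood at 0.882, 0.754 and 0.655. The difference was −0.236 with an SE of 0.066, and the limma adjusted p of 0.0221 was the highest of the 7. No read of the shorter form was seen in WT, 0 of 170 reads over the 3 libraries, which allows a share of reads of up to 1.76% by counting error alone (3 counts of the total), and 2, 8 and 10 were counted in MT. It lost its call whichever of the 6 libraries was left out. The share of the longer form still differed by −0.296 to −0.182 in those fits.

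**Figure D1:**
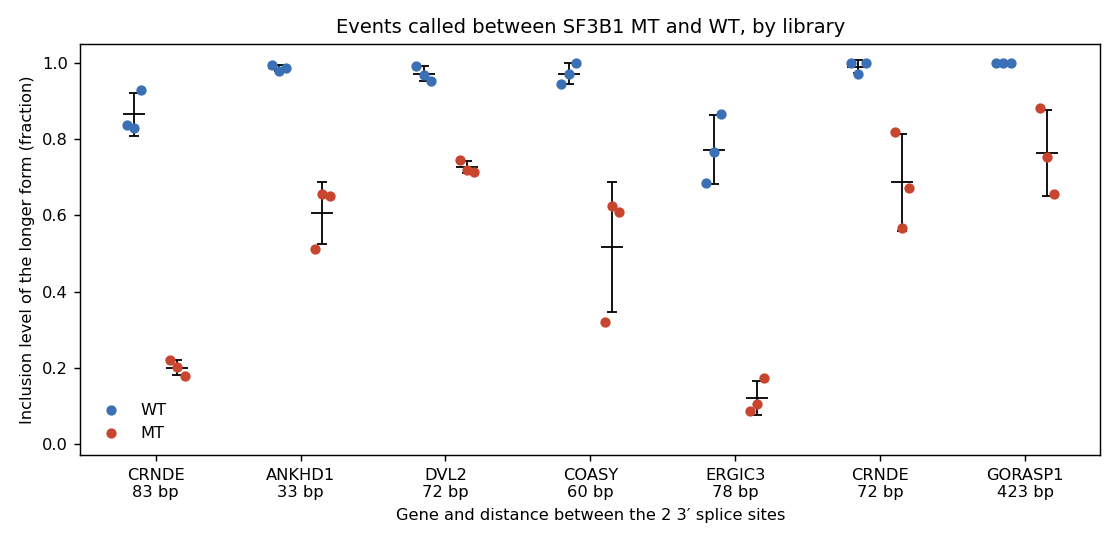
Inclusion level of the longer form (y axis, fraction) in each library for the 7 pairs called, named by gene and distance between the sites on the x axis. Points are libraries (blue WT, red MT), bars the mean and SD of 3; in every pair all MT points lie below all WT points, from 0.865 to 0.2 for the 83-bp pair of CRNDE and from 1 to 0.764 for GORASP1.

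The reads of the downstream site describe the same pairs without the length correction. The levels are computed from these reads, so the reads are not separate evidence for the calls. In all 7 pairs every MT library had more reads of the downstream site than every WT library, although the totals at all pairs overlapped between the genotypes. Distances were a multiple of 3 in 6 of the 7, with the 83-bp pair of *CRNDE*, a noncoding RNA, as the other, against 1266 of all 3251 pairs tested, or 38.9%. The calls were inspected before this was counted, and it is a description. Among the 6, the 72-bp pair of *CRNDE* is also noncoding and that of *COASY* lies in the 5′ UTR, outside coding sequence.

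**Figure D2:**
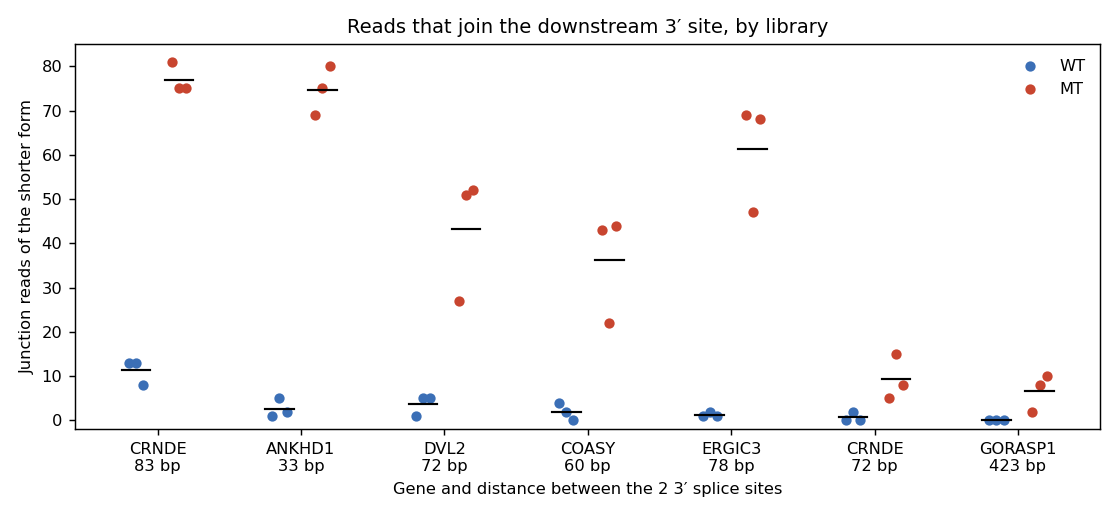
Number of junction reads that join the downstream 3′ site (y axis) for the same 7 pairs, with a point per library (blue WT, red MT) and a line at the mean of 3. WT points lie at or below 13 reads, and MT points reach 81 for the 83-bp pair of CRNDE.

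The windows printed above held similar numbers of pyrimidines at both sites. Among their 20 intron bases, the upstream and downstream sites held 11 and 11 pyrimidines in the 83-bp pair of *CRNDE*, 13 and 13 in *DVL2*, 10 and 10 in *COASY* and 12 and 11 in *GORASP1*. In *ANKHD1* the counts were 9 and 8, in *ERGIC3* 13 and 12. Adenosines differed more in *CRNDE*, at 8 and 3 in the 83-bp pair and 8 and 4 in the 72-bp pair. They numbered 3 and 6 in *GORASP1*, 6 and 6 in *ANKHD1* and 2 and 3 in *DVL2*. In *COASY* there were 4 and 4, in *ERGIC3* 4 and 3. The downstream site, the one used more in MT, held more pyrimidines than the upstream one in 0 of the 7 pairs. Over all 3251 pairs the median was 13 at both sites, the downstream site held more in 1158 pairs, and the upstream site in 1614. An AG stood at the intron end of 3246 upstream and 3246 downstream sites. In 3 of the 7 calls (*ANKHD1*, the 72-bp pair of *CRNDE* and *ERGIC3*) the downstream site lay 9, 11 or 18 bp before another annotated 3′ site. A further annotated site lay 1 to 30 bp after the downstream one in 209 of all pairs tested, or 6.43%. This was counted after the calls had been seen.

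Most pairs hardly differed between the genotypes. The difference in level lay within 0.05 of 0 in 2512 pairs, or 77.3%, with a median of −0.003 over the pairs and −0.002 over all events. The longer form dominated at the outset: the WT level was above 0.9 in 1726 pairs, between 0.1 and 0.9 in 894 and below 0.1 in 631. The median SD between libraries was 0.0221 in WT and 0.026 in MT. The best-read pairs lay near a level of 1 in both groups and hardly differed, which does not show the spread at middle levels. In *RPS2*, which encodes a protein of the small ribosomal subunit, the 386-bp pair with 15598 mean reads had a level of 0.999 in both groups, and the 253-bp pair levels of 0.998 in WT and 0.997 in MT. *RACK1*, a scaffold on the small subunit, was at 1 in both, and *RPLP0* and *RPL27A*, of the large subunit, were at 0.996 in both.

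**Figure D3:**
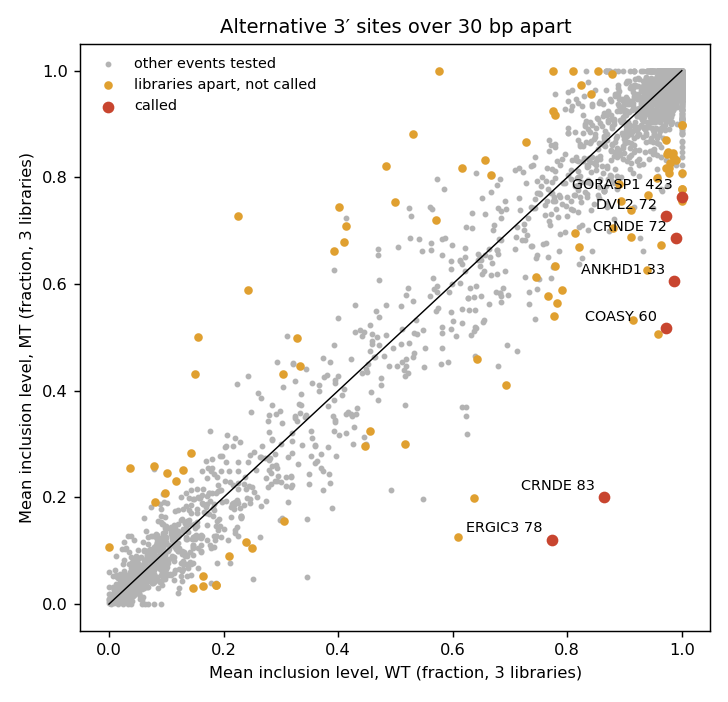
Mean inclusion level in MT (y axis) against WT (x axis), each over 3 libraries, for the 3251 pairs tested. Most points lie near the line of equal levels; the 7 calls (red, named by gene and distance) lie below it, and the other pairs whose libraries did not overlap by more than 0.1 in mean (orange) lie on both sides.

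Beyond the calls, 96 pairs in 87 genes, the calls included, had libraries that did not overlap between the genotypes and a difference above 0.1. They made up 2.95% of the pairs, against 1.73% of all events tested. The longer form was lower in MT in 59 and higher in 37. Levels near 1 can only go down, and 48 of the 59 lower ones started from a WT mean above 0.5, as did 15 of the 37 higher ones. How much the starting level contributed to the direction was not tested. A threshold of 0.2 in place of 0.1 left 37 such pairs, 22 of them lower in MT.

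The direction differed with distance by count. From 31 to 50 bp, 14 pairs without overlap were higher in MT and 8 lower, of 684 tested. From 51 to 100 bp, 13 were higher and 23 lower, of 1049. Above 100 and up to 300 bp, 9 were higher and 15 lower, of 910, and beyond 300 bp 1 was higher and 13 were lower, of 608. Pairs 10 to 30 bp apart, which lie outside the rule, had 48 higher and 14 lower, of 997, with 4 rises and 0 falls called by limma, and 75 differences above 0 and 14 below it at an unadjusted p under 0.05. The classes also started from unlike levels: the median WT level was 0.192 from 10 to 30 bp, 0.854 from 31 to 50 bp and 0.972 beyond 300 bp. The difference between the classes was not tested. At the 30-bp border, the 89 pairs 31 or 32 bp apart had a median difference of −0.000667 (from −0.203 to 0.269), and the 90 pairs 29 or 30 bp apart one of 0.000333 (from −0.126 to 0.329).

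**Figure D4:**
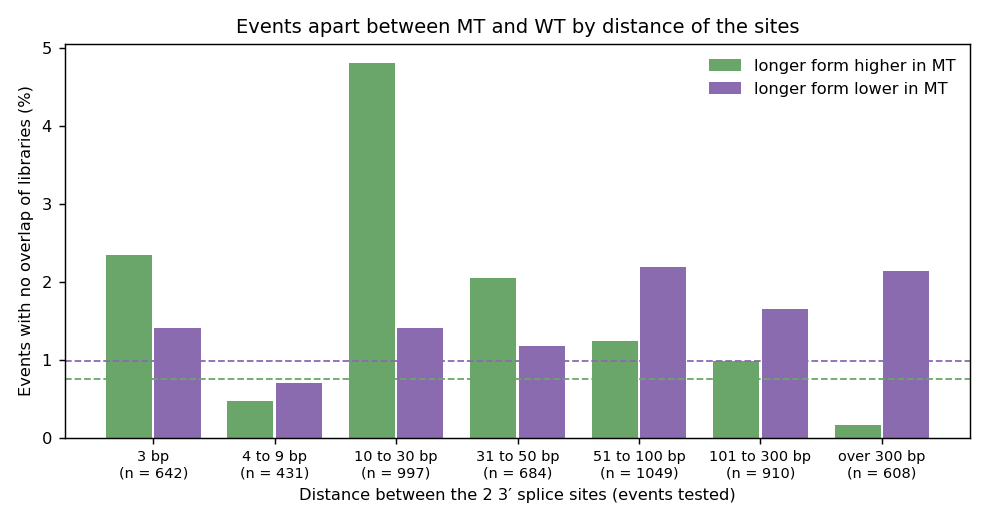
Percentage of events tested (y axis) whose MT and WT libraries did not overlap and whose mean levels differed by more than 0.1, by distance between the sites (x axis), with the longer form higher (green) or lower (purple) in MT. Dashed lines give the same over all events tested (0.748% higher, 0.977% lower); higher events peak at 4.81% from 10 to 30 bp, and beyond 300 bp 0.164% were higher and 2.14% lower.

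Other features split the pairs as follows. Distances were a multiple of 3, which keeps the reading frame in coding sequence, in 1266 pairs, and 3.87% of those did not overlap, against 2.37% of the other 1985. Both sites were annotated in 3202 of the pairs tested. Coding sequence held 2867 pairs, 5′ UTRs 244, noncoding transcripts 107 and 3′ UTRs 30, with 4, 1, 2 and 0 of the calls. Where the upstream site was in more annotated transcripts than the downstream one (1670 pairs), the median WT level was 0.986. It was 0.117 in the 1279 pairs where the downstream site was in more, so by median the annotation and the levels pointed to the same main site. In 24.6% of those 1279 pairs, however, the WT level was above 0.5. Many pairs are tied to each other: 1140 of the 3251 share a site with another pair, and 483 have the same pair of sites as another event.

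In a list of genes known as targets of mutant *SF3B1*, 43 pairs in 21 genes were tested, and 6 of them fell and 0 rose by limma, with 8 differences below 0 and 6 above it at an unadjusted p under 0.05. Those calls were 14% of its pairs, against 0.215% of all pairs and 0.0311% of all events tested, and 13 of its pairs (30.2%) had libraries that did not overlap, 5 higher and 8 lower in MT, against 2.95% of all pairs and 1.73% of all events. The list was drawn up with earlier results of these data known, so the count is not independent evidence. Its median difference was −0.000333, and 28 of its pairs differed by between −0.097 and 0.076. Another 9 differed by more than 0.1 without a call. *ABCC5*, an exporter of cyclic nucleotides, had levels at its 77-bp pair of 0.568, 0.467 and 0.877 in WT against 0.199, 0.149 and 0.247 in MT. The groups stayed apart, but with 22.2 mean reads and an SE of 0.127 the limma adjusted p was 0.5. *SKIV2L*, the helicase of the Ski complex, which feeds RNA to the exosome, was the other way round. Its 63-bp pair had levels of 0.079, 0.214 and 0.16 in WT against 0.295, 0.478 and 0.524 in MT. With 35.8 mean reads the limma adjusted p was 0.656, and the quasi-binomial test gave 0.00453.

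The other pairs of the list given here were not called either. The 33-bp pair of *ARFGAP2*, which acts on ARF GTPases of coated vesicles, had WT levels of 0.271, 0.241 and 0.69 and MT levels of 0.712, 0.716 and 0.803 on 17.1 mean reads (limma adjusted p = 0.856). Its sites 75 bp apart formed 2 events: one, with 90.8 mean reads, had means of 0.08 in WT and 0.191 in MT, and the other, with 18.7 mean reads, overlapped at 0.932 and 0.98 (limma adjusted p = 0.871). *GCC2*, a golgin, had means of 0.079 and 0.259 at its 76-bp pair, and *NDUFAF6*, an assembly factor of respiratory complex I, 0.779 and 0.633 at its 69-bp pair. For the pair of *GCC2*, that of *NDUFAF6* and the better-read 75-bp event of *ARFGAP2* the libraries did not overlap and the limma adjusted p was 0.856. Without WT 2, the difference of *NDUFAF6* went from −0.146 to −0.082. In *BRD9*, of a chromatin remodeling complex, and *PPOX*, of heme synthesis, the groups overlapped, with means of 0.321 and 0.451 at 60 bp and of 0.31 and 0.502 at 32 bp. The difference of *PPOX* was 0.192 with all libraries and 0.102 without WT 1. The sites 43 bp apart in *DPH5*, a methyltransferase of diphthamide synthesis, also formed 2 events, neither with overlap. The better-read one had means of 0.96 and 0.863, with a difference just short of 0.1 at −0.097 (limma adjusted p = 0.65), and the other 0.869 and 0.817, a difference of −0.051 (limma adjusted p = 0.856).

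*SERBP1* encodes an mRNA-binding protein whose isoforms the study followed. The study took the gene from splicing events that RNA-Seq showed in common across its isogenic lines, HEK293T among them. It showed a cryptic 3′ site of the gene in Nalm-6 cells and found its alternative splicing by qPCR in the isogenic lines. Sites of the gene 45 bp apart formed 2 events with different flanking exons. Whether these sites include the cryptic one was not tested. The event with 3662 mean reads had levels of 0.251, 0.178 and 0.182 in WT against 0.252, 0.166 and 0.162 in MT, a difference of −0.01 with an SE of 0.038. The other, with 369 mean reads, had means of 0.987 and 0.998. The genotypes overlapped in both, and limma gave adjusted p of 0.86 and 0.856.

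Pairs without a call but with at least 50 mean reads and no overlap were ranked by their difference, and the 10 largest in each direction are given as values, with 1 event for each pair of sites. The same sites formed further events with other flanking exons in *CENPK*, *ZBTB8OS*, *LETMD1* and *DCAF11*, and all of those overlapped between the genotypes. On the higher side in MT stood *ZDHHC16*, a palmitoyltransferase, whose 75-bp pair had levels of 0.887, 0.747 and 0.692 in WT against 0.891, 0.97 and 0.913 in MT. The lowest MT and the highest WT library nearly touched in this pair. A 54-bp pair of *ZDHHC16* ends at the same downstream site and had 165 mean reads. Its means were 0.862 in WT and 0.938 in MT, and its groups overlapped. *CENPK*, a kinetochore protein, had levels of 0.852, 0.852 and 0.932 in WT against 1, 1 and 0.978 in MT at its 48-bp pair. Its limma adjusted p of 0.338 was the lowest of the 10, and the 54-bp pair of *SLTM* and 8 others had 0.596 or more. These others had differences between 0.115 and 0.148: *SLTM*, *GTPBP3* (63 bp, mitochondrial tRNA modification), *RNH1* (68 bp), *ZBTB8OS* (38 bp), *CHERP* (33 bp, a spliceosome-associated protein), *NFRKB* (36 bp, of the INO80 complex), *HOMER2* (33 bp) and the read-through transcript *STAG3L5P-PVRIG2P-PILRB* (68 bp). *RNH1* here is the gene of the ribonuclease inhibitor, not RNase H1. Reads of the read-through transcript are uncertain, since it shares sequence with its neighbors. Leaving out 1 library lowered the difference by over 1.5 times in *HOMER2* (from 0.115 to 0.072 without MT 2), *RNH1* (from 0.137 to 0.091 without WT 3) and *SLTM* (from 0.148 to 0.097 without WT 1).

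On the lower side in MT, *LETMD1* came first, with levels of 0.815, 0.794 and 0.723 in WT against 0.472, 0.584 and 0.563 in MT at its 34-bp pair (limma adjusted p = 0.5). *SUGP1*, a G-patch protein that contacts SF3B1 in the spliceosome, had a pair of events that end at the same downstream site. Its 65-bp pair had levels of 0.136, 0.156 and 0.269 in WT against 0.039, 0.039 and 0.026 in MT. The reads of that downstream site, which both events share, were 45, 51 and 32 in WT against 103, 130 and 130 in MT. The 196-bp pair had means of 0.187 and 0.036, and limma gave adjusted p of 0.369 and 0.426 for the pairs, against 5.84e-04 and 1.94e-04 by the quasi-binomial test. So the shorter form of *SUGP1* was the main one in both genotypes, and more so by value in MT.

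*SNHG1*, a long noncoding RNA that hosts small nucleolar RNAs, had the smallest SE on this side. Its 231-bp pair had levels of 0.916, 0.902 and 0.864 in WT against 0.768, 0.747 and 0.753 in MT. The difference was −0.138 with an SE of 0.017, and the limma adjusted p of 0.0726 missed the threshold, which the quasi-binomial test passed at 0.019. *GPR108* followed with means of 0.973 and 0.818 at 57 bp (limma adjusted p = 0.343). The remaining 5 were 2 pairs of *PLAGL1*, an imprinted zinc finger gene (87 bp, from 0.516 to 0.3, and 38 bp, from 0.164 to 0.052), *DCAF11*, a substrate receptor of a ubiquitin ligase (55 bp, from 0.82 to 0.67), *FAM219B* (1926 bp, from 0.976 to 0.848) and *ERVK3-1* (138 bp, from 0.24 to 0.117), with limma adjusted p of 0.596 or 0.856. The 87-bp difference of *PLAGL1* rested in part on WT 3 and went from −0.216 to −0.1 without it.

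**Figure D5:**
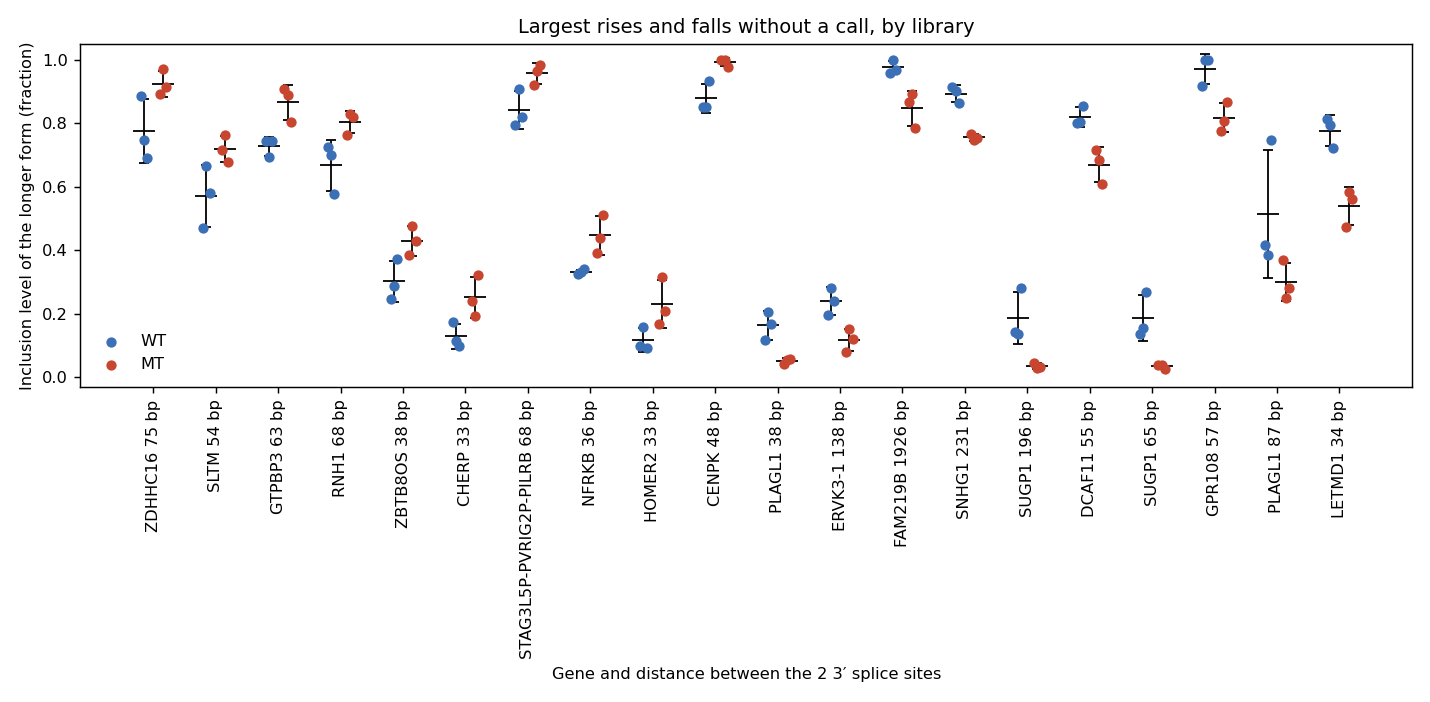
Inclusion level of the longer form (y axis, fraction) in each library for the 10 largest rises and 10 largest falls in value among pairs without a call, with at least 50 mean reads and no overlap, ordered by difference along the x axis. Points are libraries (blue WT, red MT), bars the mean and SD of 3; the gaps between genotypes are narrow for ZDHHC16 and SLTM and wider for SNHG1 and LETMD1.

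The other 7 gene lists held between 0 and 2 pairs without overlap and 0 calls by limma, with 1 to 4 pairs each at an unadjusted p under 0.05. Among 53 pairs in 35 genes of the spliceosome and its regulators, 2 (3.77%) did not overlap, both of *SUGP1*, against 2.95% of all pairs and 1.73% of all events, and the median difference was −0.00233. Of 22 pairs in genes of RNA decay, 2 (9.09%) did not overlap, the pair of *SKIV2L* and a 166-bp pair of *CNOT2* (0.657 in WT, 0.832 in MT, 16.5 mean reads). Genes of the R-loop and DNA damage response held 52 pairs, and ribosomal proteins and translation factors 79, with 0 without overlap in both lists. Of 42 pairs in centromere, kinetochore and mitosis genes the 48-bp pair of *CENPK* did not overlap (2.38%). Among 31 pairs of mitochondrial ribosome and respiratory chain genes 1 did not (3.23%, *NDUFAF6*), and among 60 of ZNF genes 1 (1.67%, *ZNF692*, 61 bp, from 0.983 to 0.841). The medians of these lists lay between −0.0128, in ZNF genes, and 0.0015, in centromere and mitosis genes.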

How the data were processed

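RNA-Seq of 3 WT and 3 MT HEK293T libraries was analyzed, grouped by the genotype in their labels. Labels name STAR, StringTie and BWA without versions, and Methods name the rMATS model. The authors deposited an inclusion level for each event and library, a fraction with 3 decimals, together with mean junction reads of each group, and also their own p-values and differences, which were not used. For MT, the deposited mean reads average all 6 listed values. Read lists of some events are run together. Coordinates are those of GRCh38, checked by the AG at the sites.

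Events with a level in all 6 libraries, at least 10 mean reads and levels that varied were fitted in limma 3.58.1 (R 4.3.3) after an arcsine square-root transform of the level, WT against MT, with the prior variance following log reads and p-values adjusted over all events by Benjamini-Hochberg. The fit was tested on simulated data, with 200 pairs changed at each size. Of changes of 0.2, 0.3 and 0.5, limma recovered 33.5%, 55% and 92%, with 0, 0 and 1 false calls. The quasi-binomial test recovered 0%, 34% and 73%. Many changes of 0.2 or 0.3 would thus go without a call. Sites were placed with GENCODE and windows read in Python 3.11.15. The members and gene lists were chosen with earlier results of these data known. Named pairs are those called, the 10 largest rises and falls without a call and without overlap from 50 reads, pairs in known target genes (by values above 0.1 or without overlap, otherwise by range) and the 5 with most reads. Alternatives were other transforms, no variance trend, a robust prior, read minimums of 20 and none, constant events kept, each library left out, other thresholds, 1 event for each pair of sites and, added after seeing the data, a quasi-binomial test on junction reads. Depth limits precision: a pair with few reads gives a coarse level.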

Additional observations from a re-analysis of the deposited data

How the results depend on the processing

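Of the 7 pairs called, 0 were called with the logit of the level (203 of the pairs at an unadjusted limma p under 0.05), with the level itself (227) or with no trend of the variance (204), and 11 with a robust prior, the 7 among them. The quasi-binomial test called 14 of 3099 pairs, 12 falls and 2 rises. With constant events kept, 6 were called, of which only the 83-bp pair of *CRNDE* was among the 7. Leaving out a library gave 2 to 6 calls, all falls: 2 without MT 1 or MT 2, 3 without WT 3. *ANKHD1* and the 83-bp pair of *CRNDE* kept their calls in each of those fits. *COASY* and *ERGIC3* lost theirs without WT 3, MT 1 or MT 2, and *DVL2* without MT 1 or MT 2. The 72-bp pair of *CRNDE* kept its call only without WT 2, and *GORASP1* in none of those fits. The remaining alternatives gave 7 or 8.

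The median difference ranged from −0.0055 (without WT 2) to −0.00133 over the libraries left out. Pairs without overlap and with a difference above 0.1 numbered 96, and 166 at 0.05, 37 at 0.2 and 145 to 187 with a library left out, since fewer libraries overlap less. Near-zero differences changed sign over the libraries left out. They ranged from −0.032 to 0.013 in the 42-bp pair of *ANKHD1* and from −0.04 to 0.013 in the better-read event of *SERBP1*. In *RPL27A*, from 0 to 0.001, and *RPLP0*, from −0.001 to 0, the value of opposite sign rounded to 0. No paired analysis was possible because the MT columns carry no replicate number that ties them to the MT samples.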

Other observations

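Further pairs were singled out after their values had been seen. In *ATP5B*, which encodes the catalytic subunit of mitochondrial ATP synthase, the 111-bp pair had a level of 1 in all 3 WT libraries and of 0.986, 0.994 and 0.992 in MT. The difference of −0.009 had a limma adjusted p of 0.0221 on 3447 mean reads and was too small to be called.

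The quasi-binomial test called *GAS8*, of the dynein regulatory complex of cilia, at the wider of its pairs without overlap (adjusted p = 1.7e-04). The longer form had 6, 10 and 16 reads in WT and 15, 23 and 41 in MT, and the shorter form 20, 22 and 14 in WT against 4, 6 and 3 in MT. Levels were 0.13, 0.185 and 0.364 in WT against 0.652, 0.657 and 0.872 in MT, and the limma adjusted p was 0.151. The same test also called pairs in *SRSF5* (956 bp, means of 0.241 and 0.114) and *RPS9* (845 bp, 0.374 and 0.249), whose WT and MT libraries overlapped.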
